A study of Mus musculus with 19 samples.

Results

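The 28 genes described here encode the enzymes that make cholesterol and the proteins that sense, move and export it. They are 7 enzymes from acetyl-CoA to farnesyl diphosphate, 11 from squalene synthesis to cholesterol and 5 genes of the sterol-sensing switch. The others are 1 sterol carrier and 4 genes of export and of the liver X receptor. The 28 were listed by name and role in the pathway, with earlier results of these data known. Each was found once among the 25124 genes of the count table by its symbol. All 28 passed the filter on low counts that left 14720 genes for testing. RNA was sequenced from blood progenitors of C57BL/6 mice, taken from fetal liver at E14.5 (days of gestation) or from the bone marrow of adults aged 12 weeks. Hematopoietic stem cells (HSC) were sorted as cells carrying cKit, Sca1 and CD150 and lacking CD48, Flt3, the lineage proteins CD3, Gr1, B220 and ter119, and the dead-cell dye 7AAD. Lymphoid-primed multipotent progenitors (LMPP) passed the same lineage gate, carried cKit, Sca1, CD48 and Flt3, and lacked CD150. CD11b was a further negative gate in adult marrow that the labels do not list for fetal liver. Age, organ and the listing of this gate changed together, so in fetal against adult comparisons they cannot be told apart. No genotype, transgene or treatment is named for any group.

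Cholesterol synthesis starts from acetyl-CoA, runs through mevalonate to farnesyl diphosphate, from which isoprenoids also branch off, and then closes squalene into sterol rings that are trimmed to cholesterol. When membranes of the endoplasmic reticulum are poor in sterol, Scap carries the SREBP precursors, made from Srebf1 and Srebf2, to the Golgi, where they are cut into transcription factors for these enzymes, and the Insig proteins hold Scap back when sterol is plentiful. Oxysterols activate the liver X receptors, among them the product of Nr1h2, which turn on the exporters Abca1 and Abcg1 and the ubiquitin ligase Mylip. Dividing blood progenitors need sterol for new membrane, and fetal liver is both a blood-forming organ and a place where hepatocytes make cholesterol.

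Fetal HSC had 2 libraries and each of the other groups 3, and levels are counts-per-million values (CPM) after scaling by the TMM method. Library totals were 19.8 M to 64.8 M counts, so that a gene at 0 could have held up to 0.0498 to 0.152 CPM (3 counts). The series calls the replicates biological and does not name separate animals. If they are not, p-values reflect only how these libraries differ, which may be technical. Adult HSC 3, adult LMPP 3 and fetal LMPP 1 stood apart from the rest on the third principal component (scores of −89.1, −24.5 and −57.5 against −5.96 to 51.4 in the other 8), so results are also given without these 3. LMPP markers separated the sorts, summing to 22.2 to 75.1 CPM in the HSC libraries and to 1118 to 3283 CPM in the LMPP libraries. HSC markers overlapped between them, at 540 to 1846 CPM in adult and 1264 to 1470 CPM in fetal HSC against 298 to 807 CPM in adult and 377 to 634 CPM in fetal LMPP, and the lowest HSC value was that of adult HSC 3. The HSC list holds Kit and Ly6a, the genes of cKit and Sca1, for which both sorts were positive. In LMPP against HSC, 3 of its 6 genes were called lower in adult marrow (median log2 difference −1.70). In fetal liver 4 of 6 were lower (−2.93), beside 9.33% and 9.85% of all genes. Among the LMPP markers Dntt stood out, at 0 counts in every fetal LMPP library and at 1167 to 1694 CPM in adult LMPP. The 8 hepatocyte markers summed to 7.35 to 58.0 CPM over all libraries, and Alb reached 13.7 CPM. Erythroblast markers, mostly Hbb-bt, summed to 618 and 722 CPM in fetal HSC against 39.0 to 103 CPM in adult HSC. Of 5 tested markers 1 was called higher, but their median log2 difference was −0.17, so the list as a whole did not rise. The part of these markers in the results below was not tested. In sorted bulk samples, fewer cells of a type and less RNA per cell cannot be told apart.

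Promoter sequence is shown first because most of the enzymes hold the same short elements in it. Of the 28 genes, 23 had an entry in the RefSeq promoter table of build GRCm38.p6, and for 22 the entry lay at the start of the gene line of the count table; the gene lines of Fdps, Fdft1, Sqle, Stard4 and Abcg1 had none. The letters CCAAT, the box bound by NF-Y, stood on either strand within 250 bases before to 50 bases after the start in 15 of 22 genes, and in 12 of the 14 enzymes among them. Over 10910 tested genes with such an entry the share was 38.9%. The letters TCACNCCAC, a form of the sterol response element, were found on either strand in Hmgcs1 alone (1.04% of tested genes). CACGTG, an E-box, stood in 5 of 22 (10.3%). GGGCGG, an Sp1 box, stood in 21 of 22 (63.9%) and in all 14 enzymes, more than held CCAAT. Below are the 100 bases before the start of 5 genes that passed a test in at least 1 comparison, and the 160 bases before that of Hmgcs1, 5′ to 3′ on the strand of the gene. These 6 were chosen after their values were seen. Capitals mark CCAAT, or ATTGG where it lies on the other strand, and in Hmgcs1 also TCACNCCAC. GGGCGG is left unmarked. The intervals are chr13:8885506-8885605 (plus strand) for Idi1, chr5:4104698-4104797 (minus) for Cyp51, chr8:64733579-64733678 (minus) for Msmo1, chr13:45389642-45389741 (plus) for Mylip, chr7:44553966-44554065 (minus) for Nr1h2 and chr13:119690191-119690350 (plus) for Hmgcs1.
Idi1: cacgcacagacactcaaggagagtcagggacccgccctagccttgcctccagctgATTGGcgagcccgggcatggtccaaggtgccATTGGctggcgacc
Cyp51: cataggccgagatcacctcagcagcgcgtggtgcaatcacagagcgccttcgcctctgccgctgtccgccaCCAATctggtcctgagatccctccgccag
Msmo1: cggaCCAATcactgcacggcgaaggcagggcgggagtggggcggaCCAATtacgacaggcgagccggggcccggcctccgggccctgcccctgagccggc
Mylip: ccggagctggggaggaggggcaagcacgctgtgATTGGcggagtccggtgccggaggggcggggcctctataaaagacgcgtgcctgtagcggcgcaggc
Nr1h2: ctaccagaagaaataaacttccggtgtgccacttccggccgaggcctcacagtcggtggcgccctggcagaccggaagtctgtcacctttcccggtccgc
Hmgcs1: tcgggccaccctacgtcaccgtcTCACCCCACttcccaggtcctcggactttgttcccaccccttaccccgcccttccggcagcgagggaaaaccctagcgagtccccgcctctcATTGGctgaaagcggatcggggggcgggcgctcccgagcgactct
Nr1h2 is the example without the box, and Mylip shows that the box is not limited to enzymes. A match is a description of letters and not a measured binding site.

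Per kilobase of the gene line, the scale on which genes can be compared, levels spanned a wide range. The mean over all 11 libraries was 75.6 CPM per kb for Acat2, a thiolase at the head of the pathway, and 65.2 for Fdps, farnesyl diphosphate synthase. Acat2 was at 78.2 ± 31.0 and Fdps at 64.2 ± 12.5 CPM per kb in adult HSC (SD), and at 86.8 ± 5.76 and 46.4 ± 2.90 in fetal HSC. In LMPP they were at 50.2 ± 13.7 and 51.8 ± 6.91 in adult, and at 91.0 ± 21.2 and 92.3 ± 10.5 in fetal libraries. Only fetal HSC parted the pair beyond their spread, so no change of order between groups is shown. In the later steps the highest group mean was that of Msmo1, the methylsterol oxidase, in adult HSC (66.4 ± 27.7) and fetal LMPP (44.4 ± 8.48), of Sqle in fetal HSC (33.7 ± 1.01) and of Ebp in adult LMPP (40.0 ± 4.79). Srebf2 had the highest mean of the control genes in 3 groups and Srebf1 in fetal LMPP (27.97 ± 6.21 against 25.1 ± 9.29), and Nr1h2 that of the export genes in all 4, from 40.3 to 57.8 CPM per kb. Over all libraries Abca1, the cholesterol exporter, was lowest at 0.841 CPM per kb, followed by the ketosteroid reductase Hsd17b7 at 1.89, and this pair was also lowest in each group. Against all tested genes ranked by CPM per kb, Fdps lay at percentile 84.7 to 90.9 over the 4 groups and Abca1 at 20.6 to 25.8.

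Summed per kilobase, the 7 mevalonate enzymes were at 250.2 ± 52.1 CPM per kb in adult HSC (SD, n = 3), 219.7 ± 3.91 in fetal HSC (n = 2), 181 ± 19.9 in adult LMPP (n = 3) and 293 ± 36.6 in fetal LMPP (n = 3). The 11 enzymes from squalene synthesis on summed to 241 ± 41.4, 145 ± 6.89, 163 ± 18.6 and 197 ± 17.8 CPM per kb in the same order. Fetal LMPP libraries lay above adult LMPP libraries for both sums, the second by a narrow margin (177.3 to 212 against 142 to 176.7). Fetal HSC libraries lay below adult HSC libraries for the second sum only.

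**Figure D1:**
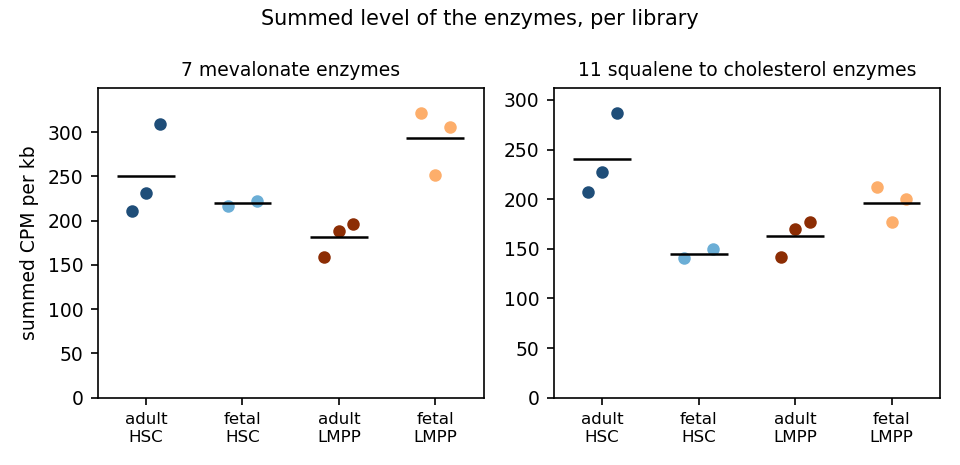
Summed level of the 7 mevalonate enzymes (left) and of the 11 enzymes from squalene synthesis to cholesterol (right), in CPM per kilobase of gene line. Each point is 1 library and each line a group mean; the later enzymes sum to 140.3 and 150 in the 2 fetal HSC libraries and to 208 to 287 in the 3 adult HSC libraries.

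In the mevalonate arm, 2 of 7 enzymes passed a test in some comparison. The share of all genes that passed in at least 1 comparison was not computed, so this count says nothing particular about the arm. Idi1, the isopentenyl diphosphate isomerase (chromosome 13, 8885606 to 8892396, plus strand), stood at 117, 156 and 150.4 CPM in adult HSC and at 86.7 and 85.2 CPM in fetal HSC. The order was turned in LMPP, where Idi1 was at 82.9, 99.8 and 89.5 CPM in adult and at 138, 113 and 118 CPM in fetal libraries. Neither pair of groups overlapped. Fdps (chromosome 3, 89093588 to 89101967, minus strand) stood at 85.7, 79.7 and 114 CPM in adult HSC and at 70.1 and 64.2 CPM in fetal HSC. It was at 68.3, 86.5 and 70.3 CPM in adult LMPP and at 128, 122 and 151 CPM in fetal LMPP. The 3 fetal LMPP libraries held the highest Fdps levels of all 11. Of the remaining 5, Acat2 ranged from 76.1 to 235 CPM over the libraries, Hmgcs1, the HMG-CoA synthase, from 43.5 to 96.2, and the phosphomevalonate kinase Pmvk from 17.1 to 41.9. The mevalonate kinase Mvk and the decarboxylase Mvd stayed within 10.5 to 16.1 and 5.62 to 15.4 CPM. Acat2, Mvk and Pmvk, and outside this arm Msmo1, Ebp and Nr1h2, were highest within each of 3 groups in the library that stands apart (adult HSC 3, adult LMPP 3 and fetal LMPP 1).

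From squalene synthesis on, 7 of 11 enzymes passed in some comparison, again a count with no share of all genes to set beside it. Sqle, the squalene epoxidase (chromosome 15, 59315092 to 59331193, plus strand), stood at 148, 139 and 156 CPM in adult HSC and at 90.1 and 94.0 CPM in fetal HSC. In LMPP it was at 56.4, 80.9 and 65.7 CPM in adult and at 116, 96.6 and 121 CPM in fetal libraries. Adult HSC libraries were thus the highest and adult LMPP libraries the lowest, with both fetal groups between them and no overlap between the ages in either cell type. Cyp51, the lanosterol demethylase (chromosome 5, 4080674 to 4104697, minus strand), stood at 88.5, 108 and 76.7 CPM in adult HSC and at 54.4 and 59.8 CPM in fetal HSC. Its LMPP levels were 51.0, 68.5 and 53.1 CPM in adult and 93.8, 76.8 and 90.9 CPM in fetal libraries. Again the ages did not overlap, and their order was opposite in the 2 cell types.

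Lss, the lanosterol synthase (chromosome 10, 76531605 to 76557139, plus strand), stood at 42.5, 38.5 and 42.8 CPM in adult HSC and at 23.6 and 28.3 CPM in fetal HSC. It fell to 12.9, 18.0 and 15.8 CPM in adult LMPP and was at 32.4, 11.7 and 27.96 CPM in fetal LMPP, where replicate 2 lay below every adult library. Its gene line overlaps that of 4930483K19Rik on the other strand over 11269 bases, and without strand the reads of both cannot be told apart. Msmo1 (chromosome 8, 64718123 to 64733578, minus strand) stood at 83.0, 103 and 179.6 CPM in adult HSC and at 52.8 and 53.2 CPM in fetal HSC. Its LMPP levels were 46.4, 61.9 and 74.1 CPM in adult and 91.7, 63.7 and 89.6 CPM in fetal libraries. The highest value came from adult HSC 3, and the LMPP groups overlapped. Fdft1, the squalene synthase (chromosome 14, 63145151 to 63179578, minus strand), was at 39.2, 50.9 and 56.8 CPM in adult HSC and at 32.2 and 42.8 CPM in fetal HSC. In LMPP it was at 22.6, 32.6 and 29.8 CPM in adult and at 37.2, 31.9 and 36.0 CPM in fetal libraries. The ages overlapped in both cell types, and the gene line shares 773 bases with Ctsb on the other strand.

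A pair of these enzymes went another way. Ebp, the sterol isomerase (chromosome X, 8185329 to 8193512, minus strand), was at 41.4, 36.4 and 64.3 CPM in adult HSC and at 27.1 and 27.2 CPM in fetal HSC. In LMPP it was at 62.5, 67.4 and 78.7 CPM in adult and at 59.4, 56.8 and 48.5 CPM in fetal libraries, so fetal libraries were lower in both cell types without overlap. Tm7sf2 (chromosome 19, 6062821 to 6067850, minus strand) was at 5.58, 6.12 and 3.89 CPM in adult HSC and at 7.27 and 8.63 CPM in fetal HSC. It was at 3.54, 3.75 and 3.08 CPM in adult LMPP and at 6.18, 12.9 and 7.44 CPM in fetal LMPP, so fetal libraries were higher in both cell types, again without overlap. The other 4 enzymes were the dehydrogenase Nsdhl (21.8 to 38.9 CPM over the libraries), Hsd17b7 (3.80 to 11.5), the sterol desaturase Sc5d (24.3 to 60.9) and Dhcr7, a reductase of the closing steps (11.6 to 26.9), and none of them passed a test.

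**Figure D2:**
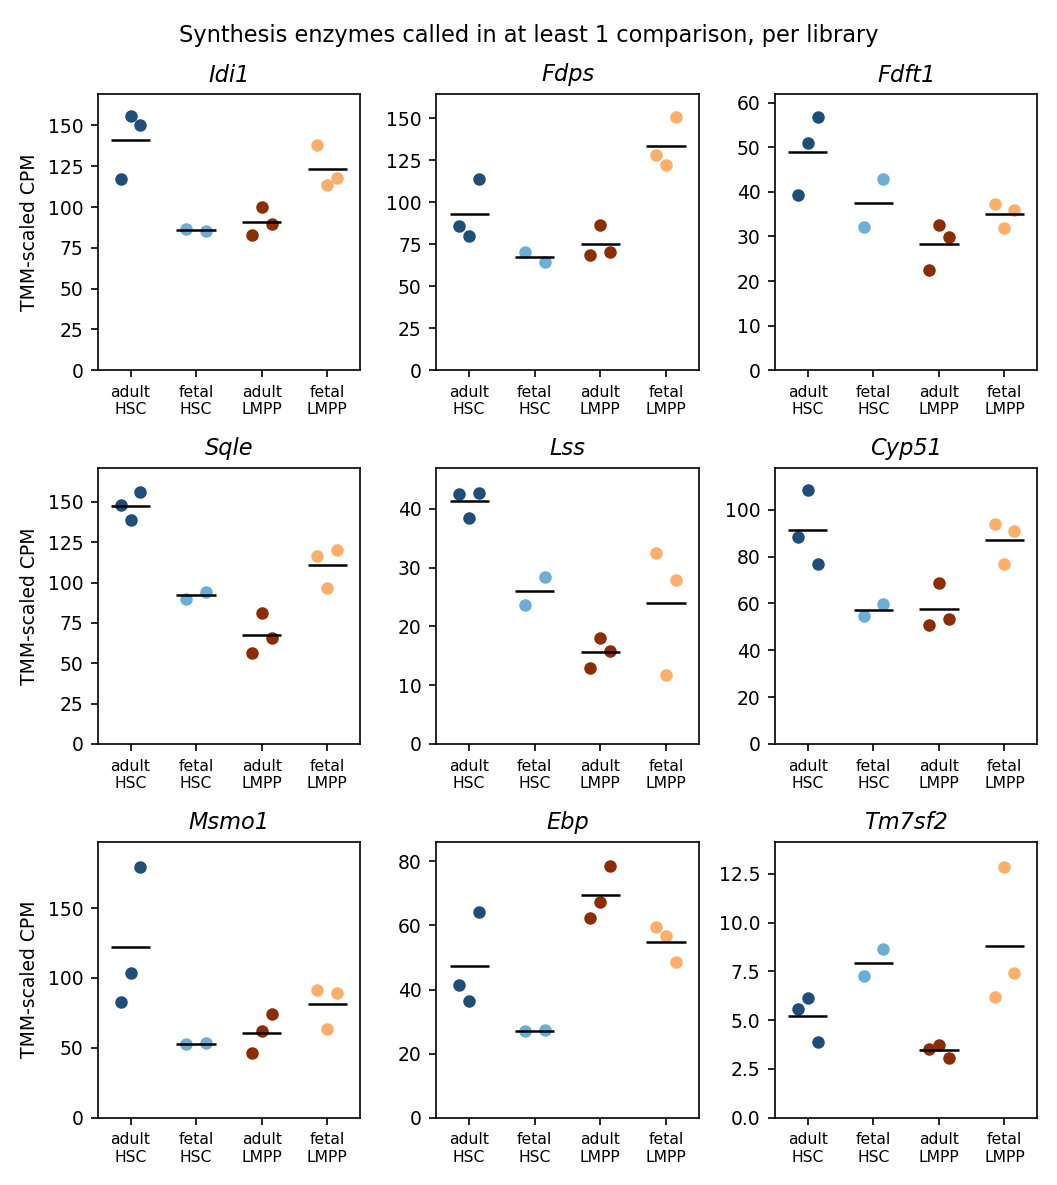
TMM-scaled CPM of the 9 synthesis enzymes that passed in at least 1 comparison, 1 point per library and 1 line per group mean, each axis starting at 0. Sqle runs from 139 to 156 in adult HSC and from 56.4 to 80.9 in adult LMPP, with fetal libraries between 90.1 and 121.

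The 5 genes of the sterol switch spread widely within groups. Srebf2 was at 156, 214 and 50.8 CPM in adult HSC, 203 and 209 CPM in fetal HSC, 148, 163 and 85.0 CPM in adult LMPP, and 71.1, 116 and 156 CPM in fetal LMPP. Scap was at 122, 102 and 33.2 CPM in adult HSC, 100.2 and 102 CPM in fetal HSC, 82.5, 96.4 and 36.4 CPM in adult LMPP, and 67.3, 141 and 129 CPM in fetal LMPP. The library that stands apart was the lowest of its group for Srebf1, Srebf2, Scap and Insig1, and among the enzymes for Tm7sf2 and Dhcr7, in all 3 groups that hold one, and what moves these genes there was not tested. Insig1, itself a textbook target of the SREBP factors, was at 53.7, 59.0 and 17.3 CPM in adult HSC and at 16.2 and 20.8 CPM in fetal HSC. Its LMPP levels were 24.0, 45.5 and 10.9 CPM in adult and 7.96, 17.5 and 23.1 CPM in fetal libraries. None of the 5 passed in any comparison in the edgeR fit of the 4 groups without further terms (adjusted p from 0.156 to 0.991). None passed by DESeq2 either (0 of 5). Unadjusted p was under 0.05 once, for Insig2 between adult LMPP and adult HSC (29.0 to 34.5 against 39.5 to 83.8 CPM, log2 difference −0.75 ± 0.33). Without the libraries that stand apart, Insig1 was lower in fetal than adult HSC by 1.62 on the log2 scale (edgeR adjusted p = 0.00694), against −1.23 ± 0.67 and adjusted p = 0.375 with them. In LMPP, Scap was then higher in fetal than adult libraries (0.58, adjusted p = 0.00859); with a term for those libraries in place of leaving them out, Scap (0.70, 0.00521) and Srebf1 (0.40, 0.0282) were higher and Insig1 (−0.67, 0.0474) lower there. Between adult LMPP and adult HSC that term left Insig1 (−0.68, 0.0450) and Insig2 (−0.65, 0.0308) lower. Shares of all genes called in either direction rose too, in fetal against adult HSC from 4.95% to 15.4% without these libraries. In LMPP the share rose from 15.4% to 29.7%, or to 33.9% with the term. Between adult LMPP and adult HSC the term raised it from 17.1% to 32%. The libraries were chosen with earlier results of these data known, so these calls are no independent support for a difference. The gene lines of Srebf1 and Rai1 overlap on opposite strands over 112 bases.

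Stard4, which carries cholesterol between membranes (chromosome 18, 33199138 to 33213862, minus strand), was at 49.1, 74.2 and 50.1 CPM in adult HSC and at 51.3 and 61.7 CPM in fetal HSC. In LMPP it was at 18.2, 29.0 and 23.2 CPM in adult and at 28.2, 23.2 and 23.5 CPM in fetal libraries. Every HSC library was above every LMPP library, and the ages overlapped within each cell type. Mylip (chromosome 13, 45389742 to 45411940, plus strand), whose product sends lipoprotein receptors to degradation, was at 19.5, 17.6 and 16.1 CPM in adult HSC and at 22.5 and 26.6 CPM in fetal HSC. In LMPP it was at 30.3, 22.5 and 18.1 CPM in adult and at 10.7, 7.69 and 10.4 CPM in fetal libraries. The 3 fetal LMPP libraries were the lowest of all 11. Nr1h2 (chromosome 7, 44549616 to 44553965, minus strand) was at 96.0, 94.6 and 124 CPM in adult HSC, 81.4 and 79.3 CPM in fetal HSC, 114, 108 and 124 CPM in adult LMPP and 85.1, 77.9 and 78.8 CPM in fetal LMPP. Each fetal library lay below each adult library of its cell type. The exporters passed no test, with Abca1 at 2.12 to 17.2 CPM and Abcg1 at 20.1 to 36.1 CPM over the libraries.

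**Figure D3:**
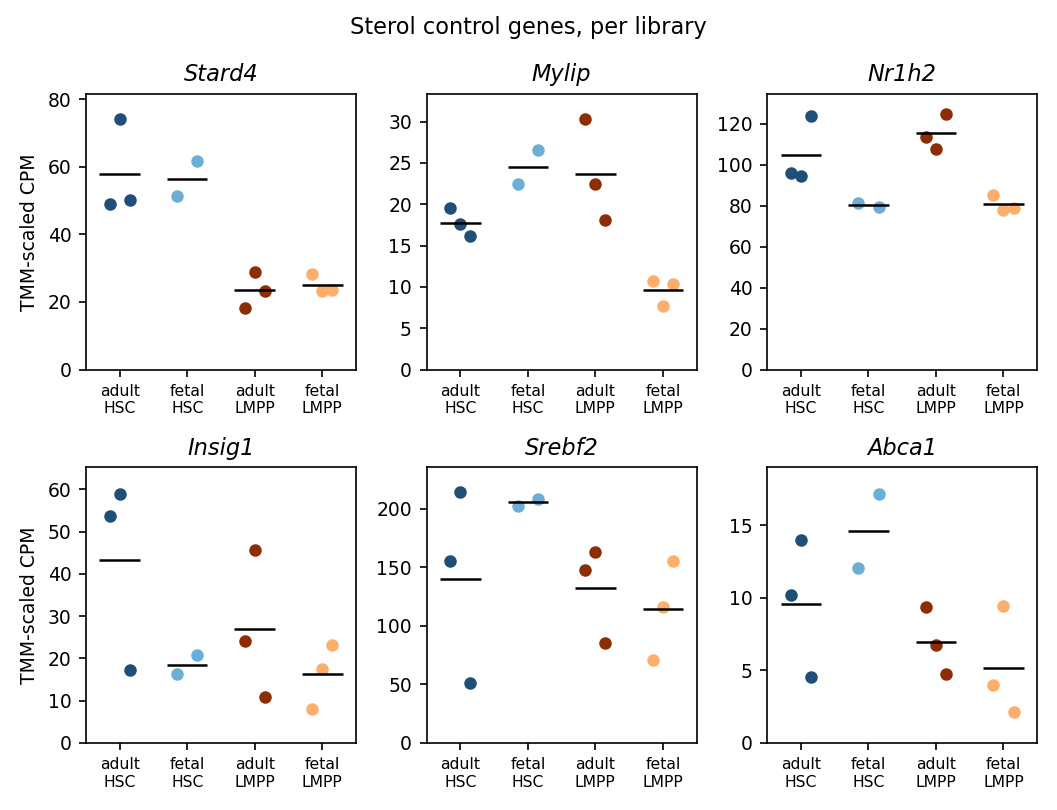
TMM-scaled CPM of 6 sterol control genes, 1 point per library and 1 line per group mean, each axis starting at 0. Stard4 separates HSC (49.1 to 74.2) from LMPP (18.2 to 29.0), Mylip is lowest in fetal LMPP (7.69 to 10.7), and Srebf2 spreads from 50.8 to 214 within adult HSC.

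Fetal and adult HSC were compared first. Estimates for most enzymes lay below 0 in fetal HSC, but Idi1 alone passed, falling from 141 ± 20.9 (SD, n = 3) to 86.0 ± 1.11 CPM (n = 2; log2 difference −0.72 ± 0.17 SE, edgeR adjusted p = 0.0409). That is 1 of 28 genes lower, or 3.57%, near the 2.89% of all tested genes called lower (4.95% in either direction), so the count of calls says nothing particular about these genes. No gene of the 28 was called higher by edgeR (0, beside 2.07% of all genes) or by DESeq2 (0). At an unadjusted p under 0.05, 0 were higher (8.54% of all genes) and 7 lower (10.1%). DESeq2 called 5 lower, where 889 of 14414 genes were called lower and 655 higher, 10.7% in either direction. The 18 enzymes had a median log2 difference of −0.45 against 0.00 over all tested genes, and 14 of 18 were below 0. In 9 enzymes every fetal library lay below every adult library, which held for 20.3% of all genes, and Tm7sf2 was the enzyme with the opposite separation (20.8% of all genes). Next to Idi1 came Sqle (−0.68 ± 0.18, adjusted p = 0.0611), Msmo1 (−1.20 ± 0.33, 0.0706) and Cyp51 (−0.67 ± 0.21, 0.0991). The median was −0.64 for the 11 enzymes from squalene synthesis on and −0.20 for the 7 before it.

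The Idi1 call was lost when replicate 2 or 3 of adult HSC or either fetal HSC library was dropped (adjusted p = 0.0687 to 0.278), without a filter on low counts (0.0524), with the replicate block (0.0896) and with only the HSC groups fitted (0.137). Without the 3 libraries that stand apart, 6 genes were lower, Idi1, Sqle, Cyp51 (−0.80), Msmo1 (−0.83), Ebp (−0.53) and Insig1. Of all 14720 genes, 1213 were then called lower and 1055 higher, 15.4% in either direction. With a term for those libraries 6 genes and 13.1% of all genes were called.

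In LMPP the same comparison gave the opposite sign for most enzymes. Fdps rose from 75.0 ± 10.005 to 134 ± 15.2 CPM (n = 3 and 3; log2 0.83 ± 0.18, adjusted p = 0.0106), Sqle from 67.7 ± 12.4 to 111 ± 12.8 CPM (0.72 ± 0.16, 0.0138), Cyp51 from 57.5 ± 9.56 to 87.2 ± 9.11 CPM (0.60 ± 0.18, 0.0493) and Tm7sf2 from 3.46 ± 0.345 to 8.82 ± 3.55 CPM (1.35 ± 0.34, 0.0225). On the receptor side, Mylip fell from 23.6 ± 6.19 to 9.59 ± 1.66 CPM (log2 −1.30 ± 0.24, adjusted p = 0.00605) and Nr1h2 from 115 ± 8.52 to 80.6 ± 3.93 CPM (−0.52 ± 0.14, 0.0364). So 4 of 28 genes, 14.3%, were called higher, beside 7.08% of all tested genes, and 2 lower, 7.14% beside 8.29%. The enzymes had a median of 0.50 against 0.00 over all genes, with 16 of 18 above 0 and Ebp and Sc5d below. Fetal libraries were all above adult libraries for 7 enzymes (17.8% of all genes) and all below for Ebp (16.9%). The medians of the early and the late enzymes were close, at 0.52 and 0.43. Acat2 (0.86 ± 0.29, adjusted p = 0.0725) and Idi1 (0.44 ± 0.15, 0.0769) did not pass. Markers of other cells moved as well: erythroblast markers summed to 15.3 to 28.7 CPM in adult and 85.1 to 269 CPM in fetal LMPP (1 of 5 called higher), hepatocyte markers to 11.8 to 16.04 and 11.6 to 57.8 CPM (2 of 8 higher; Alb at 0 in adult libraries) and macrophage markers to 33.9 to 49.3 and 12.7 to 19.6 CPM (2 of 8 lower). Their part in the enzyme result was not tested.

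The Fdps and Mylip calls held whichever library was left out. The Nr1h2 call ended without any 1 of the 6 LMPP libraries, that of Cyp51 without any but adult LMPP 2, that of Tm7sf2 without adult LMPP 1, 2 or 3 or fetal LMPP 2, and that of Sqle without adult LMPP 1 or fetal LMPP 3 (adjusted p = 0.0505 to 0.172 over these). Dropping the 3 libraries that stand apart also cost Cyp51 its call (0.0669) and left 8 genes called, beside 29.7% of all genes; a term for them left 13, beside 33.9%. DESeq2 called 8 (23.2%).

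**Figure D4:**
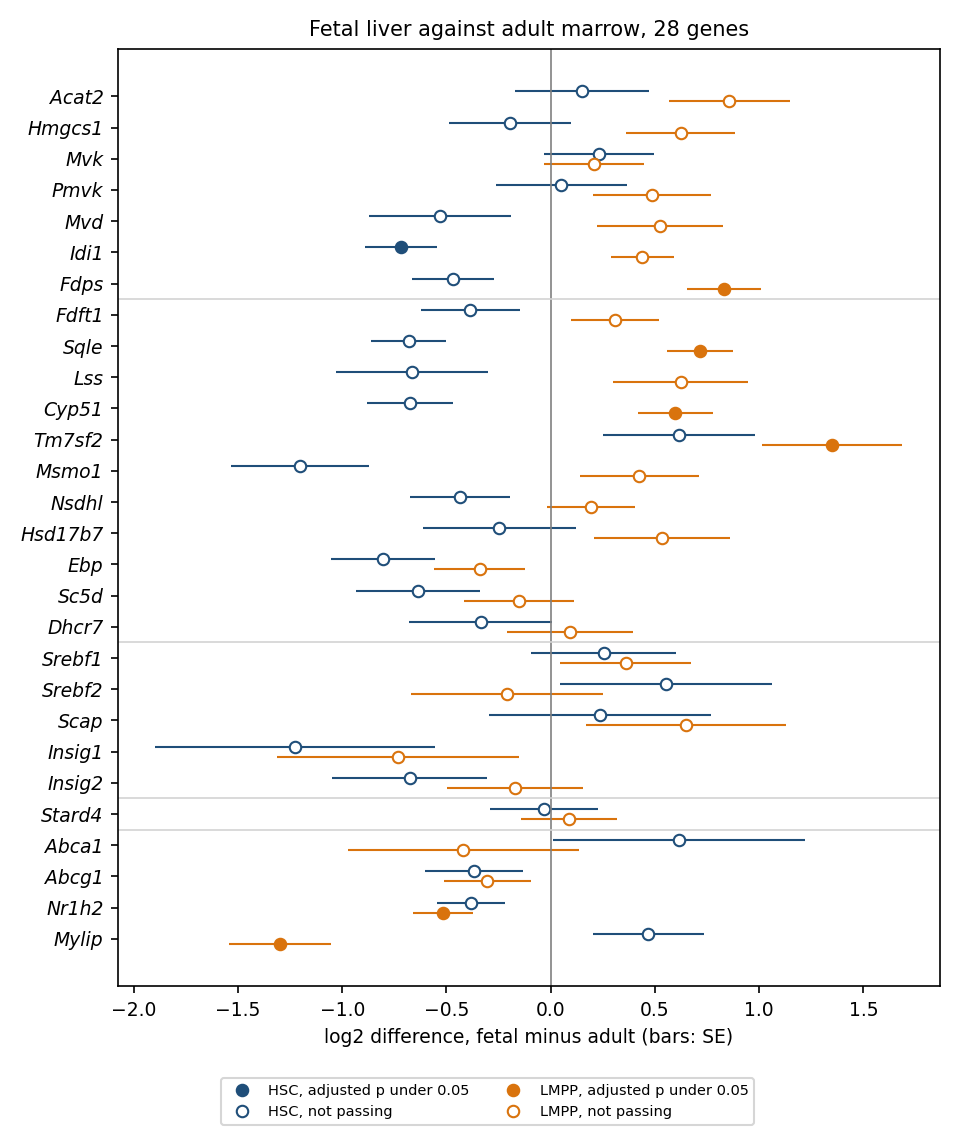
Log2 difference, fetal minus adult, of the 28 genes in HSC (blue) and LMPP (orange), with bars of 1 SE; filled points passed at an adjusted p under 0.05 and grey lines part the role groups. Most enzymes lie left of 0 in HSC (14 of 18) and right of 0 in LMPP (16 of 18).

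Whether the fetal against adult difference itself differed between the cell types was tested by the interaction, the LMPP difference minus the HSC difference. Sqle passed with a log2 value of 1.40 ± 0.24 (edgeR adjusted p = 0.0261) and Idi1 with 1.16 ± 0.23 (0.0495). These 2 of 28 genes, 7.14%, compare with 0.387% of all tested genes called with a positive value, 0.543% with a negative one and 0.931% in either direction. DESeq2 called 6 (4.63% of all genes). Fdps (1.30 ± 0.26, adjusted p = 0.0542), Cyp51 (1.27 ± 0.27, 0.0654) and, with the other sign, Mylip (−1.77 ± 0.36, 0.0525) came next and did not pass. The enzymes had a median of 0.76 against 0.01 over all genes, 17 of 18 were above 0, with Mvk at −0.02, and 7 of 18 had a positive value at an unadjusted p under 0.05 (6.42% of all genes). Of the 28, Mylip alone had a negative value at that level (6.48%). The HSC and LMPP differences share no library, and 12 of 18 enzymes, 66.7%, were lower in fetal HSC and higher in fetal LMPP, against 16.2% of all 14720 genes.

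Both interaction calls depended on single libraries: that of Idi1 ended without any 1 library but adult HSC 1, and that of Sqle without adult HSC 1 or 2, fetal HSC 1 or 2, adult LMPP 1, or fetal LMPP 1 or 3 (adjusted p = 0.0507 to 0.286). With the replicate block neither passed (0.108 for Idi1, 0.0726 for Sqle). Without the 3 libraries that stand apart, 7 genes were called, Sqle, Idi1, Fdps (1.12), Cyp51 (1.27), Msmo1 (1.31), Scap (0.74) and Mylip (−1.95), where 5.33% of all genes were (with a term for them 6, beside 5.82%).

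LMPP and HSC of adult marrow were compared next. Adult LMPP held less RNA than adult HSC of 6 enzymes, 5 of them from squalene synthesis on, and of Stard4. Sqle fell from 148 ± 8.83 to 67.7 ± 12.4 CPM (n = 3 and 3; log2 −1.13 ± 0.16, adjusted p = 0.00108), Lss from 41.3 ± 2.40 to 15.6 ± 2.53 CPM (−1.40 ± 0.33, 0.0149), Msmo1 from 122 ± 50.9 to 60.8 ± 13.9 CPM (−1.01 ± 0.29, 0.0369), Fdft1 from 49.0 ± 8.92 to 28.3 ± 5.17 CPM (−0.79 ± 0.21, 0.0283) and Cyp51 from 91.2 ± 16.01 to 57.5 ± 9.56 CPM (−0.66 ± 0.18, 0.0300). Before squalene, Idi1 fell to 90.7 ± 8.51 CPM (−0.64 ± 0.15, 0.0166). Stard4 fell from 57.8 ± 14.2 to 23.5 ± 5.41 CPM (−1.30 ± 0.23, 0.00397). These 7 of 28 genes, 25%, compare with 9.33% of all tested genes called lower. No gene of the 28 was called higher (7.76% of all genes were; 1 of 28, Ebp, at an unadjusted p under 0.05, and 0 by DESeq2). The enzymes had a median of −0.56 against −0.05 over all genes, 16 of 18 were below 0, and in 7 of 18 no adult LMPP library reached an adult HSC library (18.1% of all genes). Cycling markers moved the other way, summing to 1355 to 1877 CPM in adult HSC and 2534 to 3409 CPM in adult LMPP with 7 of 10 called higher, and their part in the enzyme result was not tested.

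The Sqle and Stard4 calls held whichever library was left out. The Lss call ended without adult LMPP 1, that of Idi1 without adult HSC 2 or adult LMPP 1, and those of Fdft1, Cyp51 and Msmo1 without any of 4 libraries each, adult HSC 2 and adult LMPP 1 among them (adjusted p = 0.0556 to 0.129); Cyp51 also lost its call without adult HSC 1 or adult LMPP 3, Fdft1 without adult HSC 3 or adult LMPP 3, and Msmo1 without adult HSC 3 or adult LMPP 2. Without the 3 libraries that stand apart 8 genes were lower and Ebp was higher (0.73, adjusted p = 0.00512), beside 28.9% of all genes called; a term for them left 12, beside 32%.

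In fetal liver most enzyme estimates had the other sign, and the interaction above is the test of that difference between the ages. Fdps rose from 67.2 ± 4.20 CPM in fetal HSC (n = 2) to 134 ± 15.2 CPM in fetal LMPP (n = 3; log2 0.99 ± 0.20, adjusted p = 0.00862), and Ebp from 27.1 ± 0.123 to 54.9 ± 5.69 CPM (1.02 ± 0.25, 0.0206). Stard4 fell from 56.5 ± 7.38 to 25.0 ± 2.84 CPM (−1.18 ± 0.25, 0.0115) and Mylip from 24.6 ± 2.92 to 9.59 ± 1.66 CPM (−1.36 ± 0.26, 0.00733). The counts, 2 of 28 in each direction or 7.14%, lay near the shares of all genes called higher and lower, 8.21% and 9.85%. The enzymes had a median of 0.24 against −0.08 over all genes, 14 of 18 were above 0, and for 9 of 18 every fetal LMPP library was above both fetal HSC libraries (27.6% of all genes). No enzyme was separated the other way, which held for 33.3% of all genes. DESeq2 called 6 of the 28 (25.5% of all genes). Idi1 (0.52 ± 0.17, adjusted p = 0.0620) and Cyp51 (0.61 ± 0.21, 0.0639) did not pass. Cycling markers summed to 1767 and 2320 CPM in fetal HSC and to 3356 to 4008 CPM in fetal LMPP, with 3 of 10 called higher, and their part was not tested. The 4 calls all ended without fetal HSC 2, those of Fdps and Ebp also without fetal HSC 1, and that of Ebp without fetal LMPP 2 (adjusted p = 0.0544 to 0.143). Without the 3 libraries that stand apart 10 genes were called (37.5% of all genes; with a term for them 8, beside 32.5%): Mvd, Fdps, Cyp51, Nsdhl, Ebp and Scap higher, and Srebf2, Insig2, Stard4 and Mylip lower.

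**Figure D5:**
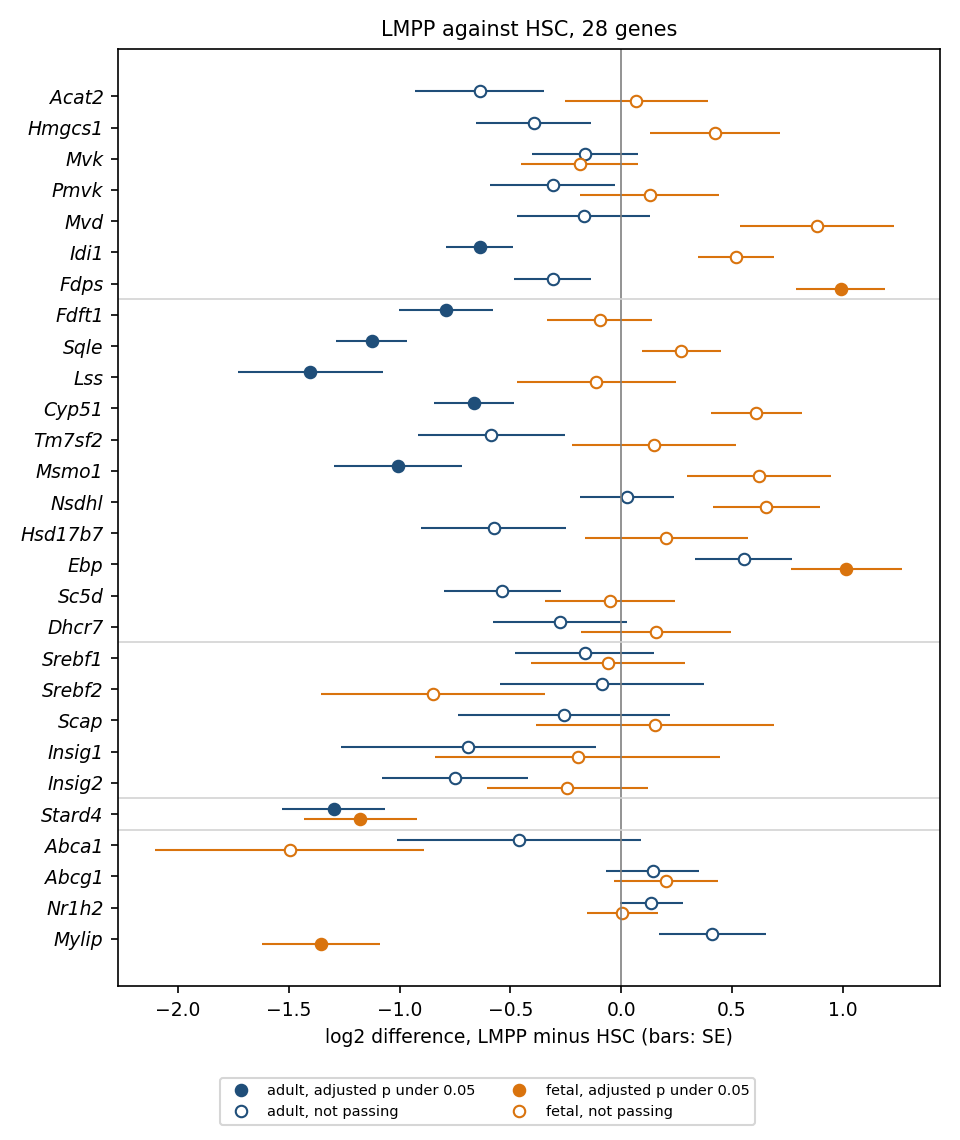
Log2 difference, LMPP minus HSC, of the 28 genes in adult marrow (blue) and fetal liver (orange), with bars of 1 SE; filled points passed at an adjusted p under 0.05 and grey lines part the role groups. Stard4 is lower in LMPP at both ages (−1.30 and −1.18), while Sqle and Lss are lower in adult marrow (−1.13 and −1.40) and at 0.27 and −0.11 in fetal liver, where neither passed.

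Genes around the pathway were read from 5 further lists, in the same fits. In fetal against adult HSC, where 2.07% of all tested genes were called higher and 2.89% lower, 1 of 15 tested fatty acid genes was lower, Mid1ip1, a partner of acetyl-CoA carboxylase (24.3 against 64.1 CPM, log2 −1.40 ± 0.30, adjusted p = 0.0251). Of 18 genes of sterol transport and storage, Cyp27a1, a mitochondrial sterol hydroxylase, rose (22.7 against 4.55 CPM, 2.32 ± 0.50, 0.0239) and Osbpl2, an oxysterol-binding protein, fell (−0.68 ± 0.16, 0.0330). Their medians were 0.06 and −0.14. In fetal against adult LMPP, 4 of the 18 fell, beside 8.29% of all tested genes called lower and 7.08% higher (median −0.38), led by Gramd1b (−1.28 ± 0.27, adjusted p = 0.0106) and Gramd1a (−0.65 ± 0.15, 0.0150), which move sterol from the plasma membrane, and Nceh1, a cholesteryl ester hydrolase (14.0 against 44.0 CPM, −1.66 ± 0.38, 0.0149). Mid1ip1 fell there too (−0.92 ± 0.26, 0.0376), and so did Me1, the malic enzyme, with 0 counts in the 3 fetal LMPP libraries against 1.29 CPM, at least 13.3-fold lower at the mean floor of 3 counts per library (0.00300). The fatty acid list nevertheless had a median of 0.62, with Me1 at its bound or not. Of 16 genes that use isoprenoids, Nus1 of dolichol synthesis rose (0.88 ± 0.22, 0.0204; list median 0.19), and of 14 genes of SREBP processing and degradation the ATPase Vcp rose (0.66 ± 0.12, 0.00563; median 0.03).

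Between adult LMPP and adult HSC, where 7.76% of all genes were called higher and 9.33% lower, Acss2, which makes acetyl-CoA from acetate, fell from 99.4 to 21.4 CPM (log2 −2.21 ± 0.41, adjusted p = 0.00458) and the desaturase Fads1 from 148 to 46.0 CPM (−1.68 ± 0.27, 0.00208). The elongase Elovl5 rose (1.12 ± 0.15, 0.000909), and the fatty acid list had a median of −0.46. Soat2, a sterol acyltransferase, fell (−2.52 ± 0.45, 0.00354), while Npc2, a lysosomal sterol carrier, and Tspo rose (0.77 ± 0.18 and 0.78 ± 0.22; adjusted p = 0.0151 and 0.0334; list median −0.01). In fetal liver, Acss2 again fell from HSC to LMPP (41.9 to 8.66 CPM, −2.26 ± 0.44, 0.00722) and Elovl5 rose (0.73 ± 0.17, 0.0178). Me1 was at 1.45 CPM in fetal HSC, so at least 15-fold lower in fetal LMPP (0.00338), and the fatty acid list had a median of 0.00, with Me1 at its bound or not. Of 18 sterol transport genes 4 fell, beside 9.85% of all genes called lower and 8.21% higher (median −0.25), led by Nceh1 (−2.49 ± 0.41, 0.00338), Gramd1c (−1.42 ± 0.33, 0.0156) and Cyp27a1 (−2.08 ± 0.50, 0.0178), and among isoprenoid users Pdss1, which makes the ubiquinone side chain, rose (1.27 ± 0.32, 0.0222; median 0.13). The 11 tested partners of the receptors and promoter boxes held no call in any comparison by edgeR, with 0 to 2 at an unadjusted p under 0.05, and DESeq2 called 1, Rxrb, higher in adult LMPP than adult HSC. The interaction called no gene of these 5 lists by edgeR and Me1 by DESeq2; of the 18 sterol transport genes 1 had a positive and 6 a negative value at an unadjusted p under 0.05, beside 6.42% and 6.48% of all genes.

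Chromatin accessibility was given as 1 list of reproducible ATAC peaks per group, each from 2 replicates, in mm10 coordinates, so it has no spread and no test. A peak lay within 500 bases of the start of 26 of the 28 genes in adult HSC, 26 in fetal HSC, 27 in adult LMPP and 25 in fetal LMPP, where 81.9%, 80.4%, 79% and 75% of all tested genes had one. The lists held 53068, 48286, 50579 and 37156 distinct peaks, so the fetal LMPP list was the shortest. Starts of Idi1, Fdps, Sqle, Lss, Cyp51, Msmo1, Tm7sf2, Ebp, Stard4, Nr1h2 and Mylip carried a peak in all 4 lists. By the authors' signal value, the Idi1 peak lay at percentile 93.7, 98.4, 96.4 and 96.1 of the adult HSC, fetal HSC, adult LMPP and fetal LMPP lists, and that of Msmo1 at 99.1 to 99.8. Tm7sf2 lay lower, at 33.9 to 88.8. Fdft1 had no peak at the start of its gene line in any list, but one of its peaks, 961 bases inside the gene line at chr14:63177545-63178617, was in all 4. Pmvk had a start peak in the adult lists only, and Abcg1 in those of fetal HSC and adult LMPP.

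Within 10 kb of the 28 gene lines the lists held 85 regions, of which 41 were in all 4. Another 9 were in the HSC lists only, 1 in the LMPP lists only, 7 in the adult lists only and 0 in the fetal lists only. Shares over all genes were not computed for such regions, so whether those named next are unusual cannot be said. A region in the body of Mylip, chr13:45391577-45392100, was in both HSC lists and in neither LMPP list, while its start peak was in all 4. Lss had a region at chr10:76541250-76541689 in both LMPP lists and in neither HSC list, and Insig1 had one at chr5:28084596-28085266 in the adult lists only. Absence from a list means that no reproducible peak was called there, and the fetal LMPP list held the fewest peaks in all.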

How the data were processed

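RNA and ATAC libraries were prepared from the sorted cells described above; RNA was made into cDNA with SMART-Seq v4 and tagmented with Nextera XT, per the labels' protocols, which keeps neither strand nor molecular identifiers. Per the file headers, the deposited expected counts are raw reads in exons per gene, made by the authors with HOMER on mm10, 1 line per gene; 22.5% of values are not whole, in steps of 0.5, and they were rounded before testing. No column of other samples was present (0). The submitters' processing notes list, without roles, MACS2, Bowtie2 2.3.5, SAMtools 1.9, Picard, HOMER, STAR, Trim Galore, RSEM and DESeq2, and the builds mm10, NCBIM37 and GRCm38.p5. In the deposited peak lists, the signal value, the score and the −log10 p values are those of the authors' peak caller, used only to rank peaks within a list; lines for several summits of a peak were merged, and the sources used here do not say whether reads were pooled.

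The analysis used edgeR 4.0.16 in R 4.3.3: filterByExpr, TMM, and a quasi-likelihood fit of the 4 groups over all 11 libraries, with Benjamini-Hochberg adjustment over all genes tested and a threshold of 0.05. Every adjusted p is from this fit unless DESeq2 (1.42.0) is named. The script was tested on simulated counts. Values are mean ± SD over libraries, and log2 differences ± SE. Floors cover counting error only. Values in every library are given for each gene that passed a test, the others by range; from each further list the 3 called genes of lowest p are named. The rule for promoters, called genes with TCACNCCAC, picked none. The genes, lists, rules and the 3 libraries that stand apart were chosen with earlier results of these data known. Alternatives were DESeq2, other filters, no TMM, a replicate block, only the groups compared, each library left out, and the 3 libraries left out or given a term.

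Replicate numbers are shared between groups and no label says what they mark. Deviations of same-numbered adult HSC and adult LMPP libraries correlated over genes (0.153, 0.306 and 0.472). The highest, 0.472, was that of replicate 3, where both libraries stand apart. Pairing of samples and a shared trait of those libraries therefore cannot be told apart. In the other comparisons the correlations ran from −0.167 to 0.0974. Promoters are from RefSeq, GRCm38.p6, whose primary coordinates are those of mm10.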

Additional observations from a re-analysis of the deposited data

Results flagged for a closer look

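The difference between fetal and adult cells itself differed between the cell types for 2 genes. For Sqle the fetal minus adult log2 difference was larger in LMPP than in HSC by 1.40 (adjusted p = 0.0261), with −0.68 in HSC and 0.72 in LMPP, and fetal and adult libraries did not overlap in either cell type. For Idi1 it was larger by 1.16 (adjusted p = 0.0495), with −0.72 in HSC and 0.44 in LMPP, again without overlap. Both differences were tested by the interaction term in edgeR, and over the alternatives, DESeq2 lowest, the adjusted p ran from 1.1e-05 to 0.166 for Sqle and from 0.000256 to 0.286 for Idi1. With the replicate block it was 0.0726 for Sqle and 0.108 for Idi1, and neither passed.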

How the results depend on the processing

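Of 140 values of a gene in a comparison, 20 passed, 31 passed under an alternative only and 89 under none; of these 89, 34 changed sign under some alternative, the largest at 0.51 on the log2 scale. No passing value changed sign, and 4 passed under every alternative run: Fdps and Mylip in fetal against adult LMPP, and Sqle and Stard4 in adult LMPP against HSC. Scap in fetal LMPP against HSC, which passed only without or with a term for the libraries that stand apart, turned from 0.15 to −0.082 without TMM and ran from −0.040 without fetal LMPP 2 to 0.41 without fetal LMPP 1.

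Of fetal against adult HSC, 1 gene passed; it was 5 with DESeq2, 0 without a filter, 2 without TMM, 0 with the replicate block, 6 without and 6 with a term for the libraries that stand apart, and 0 with only the HSC groups. Over all genes, 304 higher and 425 lower calls in this comparison became 295 and 412 without a filter, and 346 and 462 without TMM. They became 239 and 316 with the block, and 186 and 388 with only the HSC groups. In fetal against adult LMPP, 6 genes became 13 with the term and 3 with only the groups compared. In adult LMPP against HSC, 7 became 12 and 3. With only the groups compared, calls over all genes became 801 higher and 1058 lower in the former (from 1042 and 1221). They became 676 and 1064 in the latter (from 1143 and 1373). For fetal LMPP against HSC, 4 became 10 without and 8 with a term for those libraries, and 7 with only the groups compared. Over all genes the last setting gave 2047 higher and 1847 lower calls, from 1208 and 1450. The interaction count of 2 became 6 with DESeq2, 1 without a filter, 4 with a stricter filter and 0 with the replicate block. It became 7 without those libraries and 6 with the term. Over all genes, 57 positive and 80 negative calls became 62 and 78 without a filter and 66 and 78 with a stricter one. They became 41 and 45 with the block. Leaving out 1 library gave 0 to 2, 2 to 4, 2 to 6, 0 to 4 and 0 to 3 genes in the order above. Calls over all genes in fetal against adult HSC became 207 higher and 339 lower without adult HSC 1. Without adult HSC 2 they became 216 and 297. Those for the other libraries left out are not given here. Some of these fits held fewer libraries and others all of them, and the cause of the changes was not tested.

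The replicate block, for numbers whose meaning no label gives, changed no call between adult LMPP and HSC. Elsewhere it ended the calls of Idi1 (edgeR adjusted p = 0.0896 in HSC, 0.108 in the interaction) and Cyp51 in LMPP (0.0546). It also ended that of Sqle in the interaction (0.0726) and added Acat2 in LMPP (0.0474). Without TMM the median of all genes moved from −0.05 to −0.17 in adult and from −0.08 to −0.33 in fetal LMPP against HSC, and to −0.12 in the interaction, and calls over all genes became 950 higher and 1654 lower (from 1143 and 1373), 746 and 2161 (from 1208 and 1450), and in fetal against adult LMPP 926 and 1643 (from 1042 and 1221). The median of the 11 late enzymes then turned to −0.05 in fetal LMPP against HSC; every other median of either enzyme arm kept its sign under all alternatives. Counts of start peaks stayed within 1.5 times with an overlap of 200 bases and in the upper part of peaks by signal. They did so within 1000 bases of the start too. That window could not have taken counts of 25 to 27 of 28 genes past this bound, so it is no check. Each group held 2 or 3 libraries, and whether depth or the spread between libraries limits these tests was not tested.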
